A study of Mus musculus with 2 samples.

Results

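The heat shock proteins and chaperones examined here were 10 genes, selected by symbol out of the 27756 genes kept in the count matrix: *Hspa1a*, *Hspa1b*, *Hspa8*, *Hsp90aa1*, *Hspe1*, *Hspd1*, *Dnajb1*, *Dnaja1*, *Hsph1* and *Hspa5*. They were chosen on earlier results of the same cells, in which *Hspa1a* led a cluster of macrophages and dissociation-responsive genes were at higher levels in sham than in TAC hearts, so the differences between the groups below are a description without a test. CD45+ cells were isolated from hearts 1 week after sham surgery or transverse aortic constriction (TAC), which narrows the aorta and overloads the left ventricle. WT and CD3ϵ-/- hearts were each studied as sham and as TAC, and the fifth group, WT TAC hearts, came from mice given an antibody to CD8 (CD8-depleted TAC). Each group carried its own hashtag in 1 TAS-Seq library, made from the pooled cells with BD Rhapsody, and the groups are listed below as sham (WT, CD3ϵ-/-) and then TAC (WT, CD3ϵ-/-, CD8-depleted). All mice were male, 8 weeks old and of C57BL/6 background, given as C57BL/6N for the pooled library, CD3ϵ-/- mice lack T cells in the whole animal, and the number of mice behind each hashtag was not given in the sources used here. Hearts of all groups were digested for 60 min at 37°C with collagenase II and DNase I per the labels, and the study's methods also name elastase. Each group was thus 1 sample, and neither the single groups nor the sham against the TAC hashtags were tested. Cell classes of the same hearts could be compared over the 5 hashtags.

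Chaperones bind unfolded stretches of other proteins and keep them from clumping until they fold. HSP70 proteins work in cycles of ATP driven by J proteins and reset by nucleotide exchange factors, and they pass clients on to HSP90 or, in mitochondria, to the chaperonin. Some members are made at all times, whereas *Hspa1a* and *Hspa1b* are mostly silent until heat or another stress frees the factor HSF1, which binds repeats of the motif GAA in their promoters, and *Hspa5* is switched on by unfolded protein in the endoplasmic reticulum (ER). Warm enzymatic digestion is a known inducer of HSP70 and immediate early genes in isolated cells.

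The promoters were searched for exact matches to the motif of HSF1 and to the ER stress element. RefSeq windows of 300 bases around the start site (GRCm38.p6) were at hand for 8 of the 10 genes, in 13 windows, and not for *Hspa8* or *Hsp90aa1*. A pair of inverted units (GAANNTTC or TTCNNGAA, both strands) stood in 7 of the 13 windows, from 6 of the 8 genes, and in 15.1% of all 32851 windows of that length. The shares of all windows here are per window, and some genes had more than 1. A run of 3 units, in which NNGAA follows the first form or NNTTC the second, stood in the windows of 3 of the 8 genes (*Hspe1*, *Hspd1* and *Hsph1*) and in 0.603% of all windows, and each such run also holds 2 overlapping pairs. The ER stress element, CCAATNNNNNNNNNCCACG or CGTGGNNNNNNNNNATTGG, was found in 1 window, that of *Hspa5*, and in 0.119% of all. No exact match was found for *Dnajb1*, and sites with a mismatch or outside the windows were not looked for. Stretches before the start site are given 5′ to 3′ on the strand of the gene, with these motifs in capitals, to show that *Hspa1a* and *Hspa1b* share 1 promoter design while *Hspa5* has another.
*Hspa1a* (chr17:34972157-34972306, minus strand): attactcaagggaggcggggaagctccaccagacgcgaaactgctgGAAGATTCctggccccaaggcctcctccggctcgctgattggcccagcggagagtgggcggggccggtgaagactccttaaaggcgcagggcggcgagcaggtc
*Hspa1b* (chr17:34959239-34959388, minus strand): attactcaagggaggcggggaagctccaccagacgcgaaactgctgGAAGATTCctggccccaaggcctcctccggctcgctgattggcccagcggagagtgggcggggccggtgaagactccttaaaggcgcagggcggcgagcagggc
*Hspe1* (chr1:55088053-55088082, plus strand): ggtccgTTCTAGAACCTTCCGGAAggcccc
*Hsph1* (chr5:149636351-149636380, minus strand): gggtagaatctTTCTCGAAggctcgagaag
*Dnaja1* (chr4:40722318-40722377, plus strand): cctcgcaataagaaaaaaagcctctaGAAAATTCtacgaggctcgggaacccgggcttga
*Hspa5* (chr2:34771990-34772089, plus strand): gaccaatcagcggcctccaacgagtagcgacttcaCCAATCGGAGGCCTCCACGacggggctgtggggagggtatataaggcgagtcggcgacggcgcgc

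The stretches of *Hspa1a* and *Hspa1b* differed at 1 of 150 positions, and their windows at 4 of 300. The stretch of *Hspe1* also belongs to *Hspd1*, which is read from the other strand of the same DNA. The 3 units of *Hsph1* lay behind its start site, from position 16 to 28 of the same window, and are not printed. *Hspa1a* (chr17:34969359-34972156) and *Hspa1b* (chr17:34956429-34959238) are near-identical neighbours. Of the runs of 50 bases in the *Hspa1a* transcript of the older NCBIM37 annotation, 59.4% were also in that of *Hspa1b*, but none of those within 500 bases of the 3′ end. How the authors counted reads of the shared stretch is not given in the sources used here, so that the split between them is uncertain, and both are also given as a sum.

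After filtering 5263 cells with a hashtag remained, of which 835 to 1615 belonged to each group. They were gated on CPM of the single cell (reads of a gene per 1000000 reads) of *Csf1r*, *Lyz2*, *Lyve1*, *Ly6c2*, *Cd209a* and *Cd79a*, none of which is among the 10 genes, into 204 Lyve1-positive and 2692 Lyve1-negative macrophages, 534 Ly6c2-positive monocytes, 407 Cd209a-positive cells and 441 B cells, while 920 cells met no gate and 65 further Cd79a-positive cells were left out. B cells and Lyve1-negative macrophages were well apart on markers that the gates did not use. *Ms4a1* reached 1413 to 2053 CPM in B cells and 0.849 to 2.17 CPM in Lyve1-negative macrophages, and *C1qa* reached 2026 to 2959 CPM in the latter and 7.93 to 78.5 CPM in B cells. Monocytes and Cd209a-positive cells were less apart from these macrophages on *Ccr2*. It was at 2244 to 2864 CPM in monocytes, 1356 to 1629 CPM in Cd209a-positive cells and 1171 to 1786 CPM in Lyve1-negative macrophages. Per hashtag, B cells held 3766338 to 7439690 reads, with a median of 42518 to 56470.5 per cell, and macrophages 46112796 to 118545278 reads, with 73104.5 to 120852 per cell. The values count reads and not molecules, and all intervals below cover counting error alone. Intervals of CPM ratios treat each read as independent and are therefore too narrow. The sum of the fewest cells was that of 15 Lyve1-positive macrophages of CD3ϵ-/- TAC. Cells with a read of *Cd3e*, the gene disrupted in CD3ϵ-/- mice, numbered 69 of 1000 in WT sham, 42 of 835 in CD3ϵ-/- sham, 103 of 1615 in WT TAC, 83 of 919 in CD3ϵ-/- TAC and 51 of 894 in CD8-depleted TAC, and reads from what remains of the gene were not told apart. A *Cd8b1* read was found in 8 of 1000 cells of WT sham and 12 of 1615 of WT TAC. None was found in CD3ϵ-/- hearts, with 0 of 835 cells in sham and 0 of 919 in TAC. For CD8-depleted TAC the count was 6 of 894, which is why this group is called by its label.

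*Hspa1a* and *Hspa1b* encode the stress-inducible HSP70, and together they set macrophages apart from B cells more than any other member. In macrophages *Hspa1a* stood at 768 CPM in WT sham, 530 in CD3ϵ-/- sham and, for the TAC groups in the order given, 201, 82.7 and 208. The B cells of the same hashtags had 29.6, 38.4, 29.2, 53.3 and 6.37 CPM. Macrophages were higher in 5 of 5 hashtags, and the lowest macrophage value was above the highest B cell value, although in CD3ϵ-/- TAC the gap was small. The fitted log2 fold change was 3.58 ± 0.65 (SE, n = 5 hashtags). All cells, B cells included, had been clustered together when *Hspa1a* and *Hspa1b* were found to lead a cluster, so their differences between classes are a description, given without a p, and their place among the genes called below is no independent support. For *Hspa1b* macrophages had 147, 97.8, 42.0, 19.4 and 34.8 CPM in the same order and B cells 7.04, 30.0, 3.40, 6.93 and 3.72 CPM. It was again higher in 5 of 5 hashtags, by a fitted 8.13-fold (log2 fold change 3.02 ± 0.47). The values of both classes overlapped for *Hspa1b* when all hashtags were pooled, since B cells of CD3ϵ-/- sham were above macrophages of CD3ϵ-/- TAC. The few B cell reads came from few cells, and the 10% of B cells with the most held 84.2% to 100% of the reads of both genes.

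**Figure D1:**
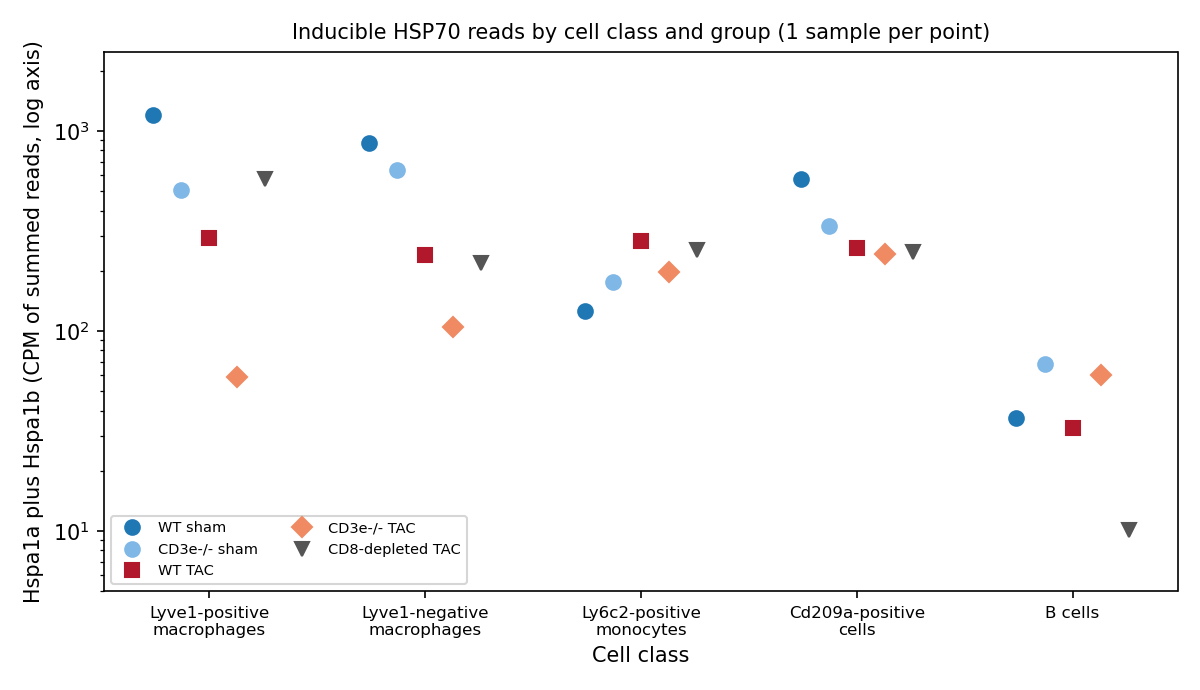
Summed reads of Hspa1a plus Hspa1b in CPM (log axis) in the 5 cell classes, with 1 point for each group, which was 1 sample. B cells lie between 10.1 and 68.4 CPM, and the sham groups are the highest points of Lyve1-negative macrophages at 870 and 637 CPM.

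Of the 10 genes, 4 were called higher in macrophages (*Hspa1a*, *Hspa1b*, *Hspa8* and *Hspa5*) and 2 lower by edgeR over 16483 genes, where 20.7% of all genes tested were called higher and 13.3% lower. The median log2 fold change of the 10 was 0.12 and that of all genes 0.15. Nothing in the sources says how many mice stand behind a hashtag. The p-values below weigh the difference between classes against its variation over these 5 samples, each of another group. Scaling by total reads alone lowered the median of all genes by 0.18, with the same 6 genes called in the same direction. The ratios per hashtag in the plot of macrophages against B cells are by total reads, without the scaling of the fit. B cells also differed from macrophages in depth and in their mitochondrial share, with medians per hashtag of 5.17% to 5.85% against 3.98% to 5.35% of reads, and the part of these in the differences was not tested. The marker sums include the gate genes *Csf1r*, *Lyz2* and *Cd79a*, which the gates set apart by design. The 7 macrophage markers summed to 125 to 406 CPM in B cells and 18897 to 22923 CPM in macrophages, and the 5 B cell markers to 10179 to 13440 CPM and 190 to 391 CPM.

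Among the HSP70 proteins made at all times the difference was small and uniform. *Hspa8*, the cytosolic HSC70 that folds new proteins and uncoats vesicles, stood at 1345, 1186, 1473, 1646 and 1588 CPM in macrophages and at 960, 850, 1222, 1291 and 996 CPM in B cells. The ranges overlapped, but it was higher in 5 of 5 hashtags, 1.54-fold by the fit (log2 fold change 0.63 ± 0.08, adjusted p = 0.0011 by edgeR's quasi-likelihood test with Benjamini-Hochberg adjustment). *Hspa5*, the HSP70 of the ER also known as BiP, had 1485, 1570, 1234, 1450 and 1369 CPM in macrophages and 1093, 1024, 996, 867 and 962 CPM in B cells. The 2 ranges did not overlap, and the fitted difference was 1.62-fold (log2 fold change 0.70 ± 0.09, adjusted p = 0.0011 by the same edgeR test).

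The 2 members lower in macrophages were *Hsp90aa1* and *Hsph1*. *Hsp90aa1*, the inducible cytosolic HSP90, was at 515, 561, 446, 433 and 445 CPM in macrophages and at 899, 733, 694, 1048 and 771 CPM in B cells. Every B cell value was above every macrophage value, and the fitted log2 fold change was -0.60 ± 0.13, which is 1.52-fold lower in macrophages (adjusted p = 0.010, edgeR's quasi-likelihood test with Benjamini-Hochberg adjustment). *Hsph1*, the HSP110 that exchanges the nucleotide of HSP70, had 28.6, 28.04, 46.1, 50.4 and 41.2 CPM in macrophages and 50.1, 34.8, 63.2, 97.2 and 83.1 CPM in B cells, lower in 5 of 5 hashtags. Its fitted log2 fold change of -0.53 ± 0.17 passed narrowly (adjusted p = 0.047 by the edgeR test), the adjusted p ranged from 0.000888 to 0.198 over 14 alternatives, and the call was lost in 7 of them, including those without WT sham (0.114), without WT TAC (0.0801), without CD3ϵ-/- TAC (0.128) and without CD8-depleted TAC (0.146).

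The remaining 4 members did not pass. *Hspd1* and *Hspe1* encode the mitochondrial chaperonin HSP60 and its lid HSP10. *Hspd1* was at 130 to 140 CPM in macrophages and 98.2 to 137 CPM in B cells (log2 fold change 0.34 ± 0.11, adjusted p = 0.056 by edgeR's quasi-likelihood test), and *Hspe1* at 96.5 to 124 against 116 to 162 CPM (-0.11 ± 0.15, adjusted p = 0.63). The J proteins *Dnajb1* and *Dnaja1* hand clients to HSP70 and start its ATP cycle. *Dnajb1* was at 51.3 to 132 CPM in macrophages and 93.4 to 157 CPM in B cells (-0.31 ± 0.17, adjusted p = 0.21, lower in 4 of 5 hashtags by CPM), and *Dnaja1* at 174 to 237 against 177 to 360 CPM (-0.10 ± 0.13, adjusted p = 0.57).

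**Figure D2:**
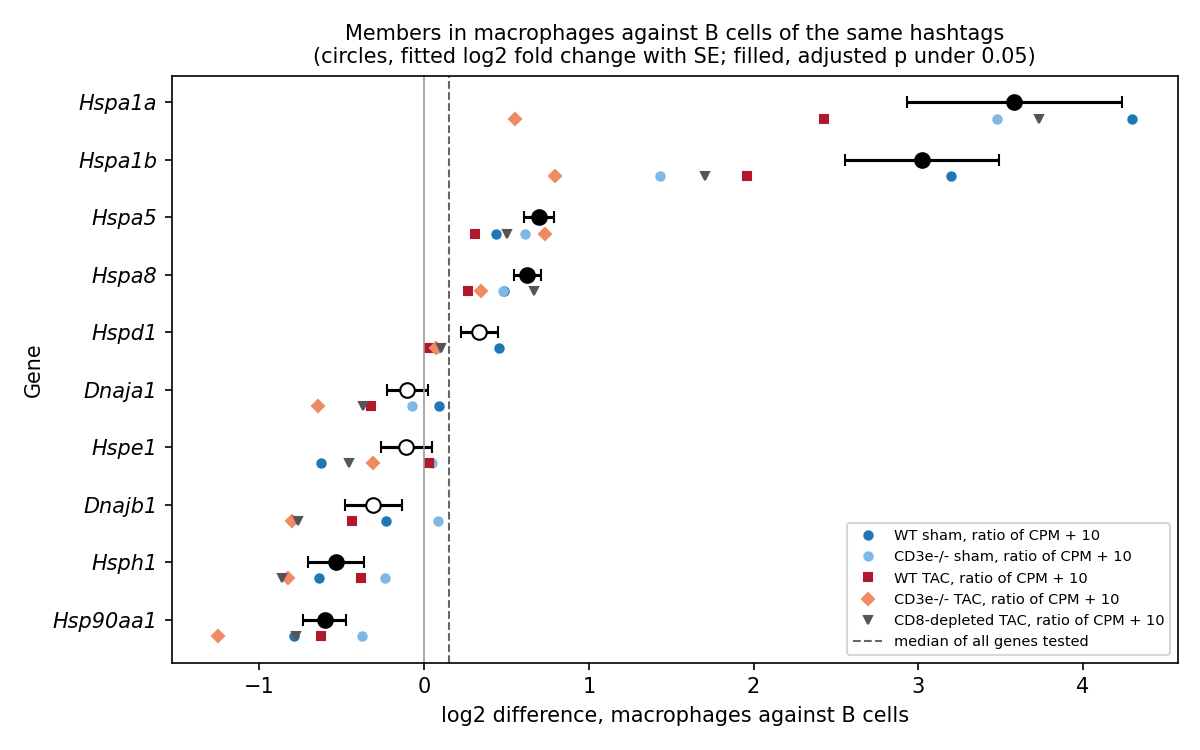
Fitted log2 fold change of each member in macrophages against B cells of the same hashtags (black circles, bars SE, n = 5 hashtags, filled where the adjusted p was under 0.05), with the log2 ratio of CPM + 10 in each hashtag as coloured points. Hspa1a and Hspa1b lie near 3.58 and 3.02, and the other members lie between -0.60 and 0.70.

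A list of 76 other genes held chaperones, cochaperones, folding enzymes and regulators. Of these 74 were tested, and 23 were higher and 5 lower in macrophages, beside 20.7% and 13.3% of all genes. The median log2 fold change was 0.21 for the list and 0.15 for all genes. The folding enzymes of the ER held the most rises, with 8 of 11 higher and none lower, led by *Sdf2l1* (log2 fold change 2.102 ± 0.322), which binds the ER J proteins. Of the HSP90 paralogs *Hsp90b1*, the HSP90 of the ER, was the 1 of 3 that passed (1.23 ± 0.12). *Hspa4l* of the HSP110 family (1.05 ± 0.24) was the 1 of 7 HSP70 and HSP110 genes that passed, and *Pfdn1*, a subunit of prefoldin (1.17 ± 0.32), led the 2 of 14 prefoldin and TRiC chaperonin genes. Of 12 J proteins tested 1 was higher, *Dnajc3* (1.11 ± 0.16), and 3 were lower, with *Dnajb9*, an ER J protein, the lowest at -1.50 ± 0.15. Among 9 regulators 4 were higher, led by the ER stress sensor *Ern1* (2.87 ± 0.40), and 2 were lower, led by *Eif2ak3*, the sensor PERK (-1.72 ± 0.17). *Cryab* (4.20 ± 0.95), 1 of 4 small heat shock proteins tested, and *Bag2* (4.65 ± 0.88), which led 5 of 14 cochaperones, had the largest values but averaged 4.43 and 1.71 CPM in macrophages.

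Lyve1-positive macrophages are resident cells of the heart that carry the receptor LYVE1. None of the 10 genes passed against the Lyve1-negative macrophages, where 1.51% of 15751 genes were called higher and 1.23% lower by edgeR with Benjamini-Hochberg adjustment. The unadjusted p of this edgeR test was under 0.05 for 3 of the 10, *Hsp90aa1*, *Hspa5* and *Hspe1*, all at lower values in Lyve1-positive macrophages. The share of all genes under that unadjusted limit was not worked out, so nothing is read from this count. DESeq2 and limma called 0 of the 10 as well. *Hspa1a* in Lyve1-positive macrophages was at 1005, 474, 243, 49.6 and 496 CPM and in Lyve1-negative macrophages at 731, 534, 199, 84.4 and 188 CPM. The values of both classes overlapped, and 3 of 5 hashtags were higher in the Lyve1-positive cells. The median log2 fold change was -0.23 for the 10 genes and -0.18 for all genes. Of the list of 76 other genes *Hspa4l* was higher in 5 of 5 hashtags (0.95 ± 0.18) and *Bag2* lower (-5.35 ± 1.06, at 0.034 CPM in Lyve1-positive macrophages).

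Monocytes that express *Ly6c2* are recent arrivals from blood. Against macrophages they were higher in *Hspa8* and *Dnaja1*, 2 of the 10 genes, and lower in none, where 4.69% of 17099 genes were called higher and 5.23% lower. *Hspa8* was at 1834, 1414, 2117, 2314 and 2293 CPM in monocytes, above macrophages in 5 of 5 hashtags (log2 fold change 0.52 ± 0.07, adjusted p = 0.0062 by edgeR's quasi-likelihood test with Benjamini-Hochberg adjustment). *Dnaja1* was at 229, 263, 303, 301 and 388 CPM, and was also above in 5 of 5 (0.58 ± 0.09, adjusted p = 0.010 by the same edgeR test, up to 0.064 over 14 alternatives, of which 11 kept the call). Both work together, since *Dnaja1* is a J protein of HSC70. *Hspa1a* in monocytes was at 74.3, 155, 229, 160 and 205 CPM, below macrophages in both sham groups and close to or above them after TAC (log2 fold change -0.64 ± 0.61). The sham groups held 25 and 34 monocytes. Of the list of 76 other genes *Hyou1*, an HSP110 of the ER (0.75 ± 0.18), and *Xbp1*, a factor that switches on ER chaperones (0.64 ± 0.10), were higher and none was lower.

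Cd209a-positive cells held 9846 to 12296 CPM of *H2-Ab1*, which presents antigen, and 72.5 to 131 CPM of *Flt3*, the growth factor receptor of dendritic cells. Lyve1-negative macrophages held 3982 to 7584 CPM of *H2-Ab1* and 4.72 to 9.19 CPM of *Flt3*. The Cd209a-positive cells also held 2199 to 4161 CPM of *Lyz2* and 306 to 492 CPM of *Csf1r*, so they are named by their gate and not as a cell type. Against macrophages the Cd209a-positive cells were higher in *Dnaja1* alone of the 10 genes, where 6.53% of 17204 genes were called higher and 8.14% lower. *Dnaja1* stood at 235, 202, 290, 374 and 368 CPM, above macrophages in 5 of 5 hashtags (log2 fold change 0.49 ± 0.09, adjusted p = 0.010 by edgeR's quasi-likelihood test with Benjamini-Hochberg adjustment), and the call was lost without the block on hashtags (adjusted p = 0.058, the highest of 14 alternatives, the lowest being 1.29e-05). Subunits of the TRiC chaperonin, which folds actin and tubulin, and of prefoldin were the group of the 76 genes with the most rises, with 5 of 14 higher and *Cct5* in the lead (0.45 ± 0.08), and *Hsp90ab1*, the cytosolic HSP90 made at all times, was also higher (0.34 ± 0.05). Of the 76 genes 10 were higher and 3 lower, among them the ER protein *Creld2* (0.85 ± 0.16), the HSP70 cochaperones *Hspbp1* (0.59 ± 0.16) and *St13* (-0.39 ± 0.09), and the stress factor *Ddit3* (-0.75 ± 0.19). *Hspa1a* was at 458, 277, 201, 200 and 195 CPM.

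The order of the classes by mean level differed between members. *Hspa1a* and *Hspa1b* ran from Lyve1-positive macrophages (means 454 and 73.0 CPM) over Lyve1-negative macrophages, Cd209a-positive cells and monocytes to B cells (31.4 and 10.2 CPM). For *Hspa1a* the step from monocytes to B cells was the only one between neighbours without overlap of the 5 values. *Hspa8* was highest in monocytes (1995 ± 377 CPM, SD, n = 5 hashtags) and lowest in B cells (1064 ± 185), *Hspa5* highest in Cd209a-positive cells (1599 ± 213) and lowest in B cells (988 ± 83.3), and *Dnaja1* highest in monocytes (297 ± 59.2) and lowest in Lyve1-positive macrophages (204 ± 50.7). *Hsp90aa1*, *Hsph1* and *Dnajb1* were highest in B cells and lowest in Lyve1-positive macrophages, with *Hsp90aa1* at 829 ± 145 and 363 ± 80.2 CPM. *Hspe1* was highest in Cd209a-positive cells (143 ± 19.1) and lowest in Lyve1-positive macrophages (86.9 ± 27.6), while *Hspd1* was highest in the latter (148 ± 39.5) and lowest in monocytes (108 ± 34.4). For the genes other than *Hspa1a*, each class overlapped its neighbour in the order.

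In macrophages the inducible HSP70 showed the widest differences of the 10 genes between TAC and sham, and was lower after TAC. *Hspa1a* was 3.82-fold lower in WT TAC than in WT sham (log2 ratio -1.93, exact 95% interval -1.96 to -1.91) and 6.41-fold lower in CD3ϵ-/- TAC than in CD3ϵ-/- sham (-2.68, -2.72 to -2.64). *Hspa1b* was 3.49-fold and 5.04-fold lower. The summed level of the J protein *Dnajb1* was lower too, with 132 CPM in WT sham and 66.2 in WT TAC (log2 ratio -0.99). In CD3ϵ-/- hearts it was 116 CPM in sham and 51.3 in TAC (-1.17). The share of macrophages with a *Dnajb1* read, after thinning each cell to 30000 reads, overlapped between sham and TAC. This share was 30.5% in WT sham, 31.6% in CD3ϵ-/- sham and 27.6% to 32.8% across the TAC groups. Past 2-fold, 2 of the 10 genes were lower in WT, where 0.664% of 7078 genes were lower and 0.961% higher, and 3 in CD3ϵ-/- hearts, where 1.11% of 6998 genes were lower and 1.57% higher. No member was higher past 2-fold in either genotype. The genes were chosen with such differences known, so nothing is read from these counts. The macrophages themselves also differed between the groups. The 5 markers of Lyve1-positive macrophages summed to 1118 and 511 CPM in sham and 397, 463 and 579 CPM in TAC, and the 4 monocyte markers to 1388 and 1818 CPM in sham and 2396, 2103 and 2175 CPM in TAC. The median mitochondrial share was 5.35% and 5.16% in sham and 4.65%, 3.98% and 4.66% in TAC. The part of these in the differences was not tested. Among Lyve1-negative macrophages the sham values of *Hspa1a* lay above its TAC values. Among Lyve1-positive macrophages, with 15 to 75 cells per hashtag, they overlapped, since CD8-depleted TAC (496 CPM) exceeded CD3ϵ-/- sham (474 CPM).

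**Figure D3:**
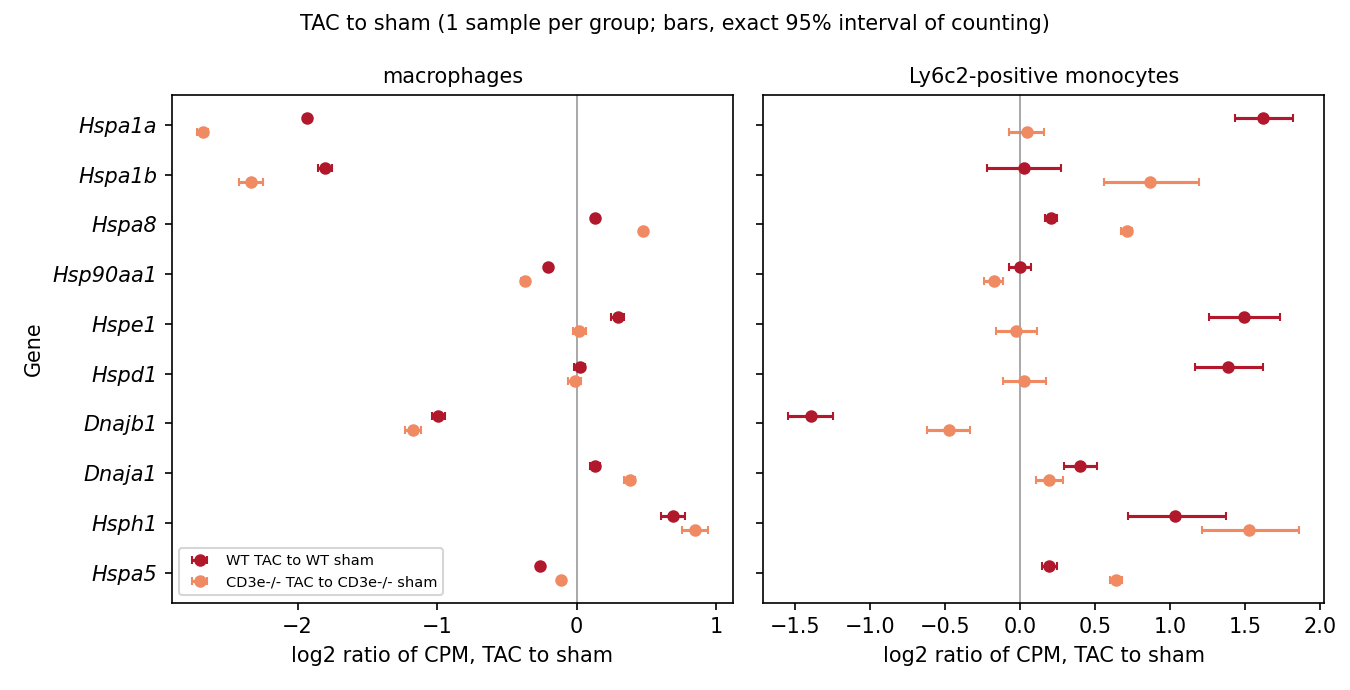
log2 ratio of CPM in TAC to sham for each member in macrophages (left) and Ly6c2-positive monocytes (right), for WT and CD3ϵ-/- hearts, with exact 95% intervals of counting and 1 sample in each group. In macrophages Hspa1a, Hspa1b and Dnajb1 lie at -0.99 or below in both genotypes and Hsph1 lies at 0.69 and 0.85.

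Not all members followed. In macrophages the 2 sham values lay above the 3 TAC values for 5 of the 10 genes (*Hspa1a*, *Hspa1b*, *Dnajb1*, *Hsp90aa1* and *Hspa5*), which was so for 12.6% of 7442 genes, and below them for 3 (*Hspa8*, *Dnaja1* and *Hsph1*), which was so for 25.5%. *Hsph1* was at 28.6 CPM in WT sham and 46.1 in WT TAC, and at 28.04 in CD3ϵ-/- sham and 50.4 in CD3ϵ-/- TAC, log2 ratios of 0.69 and 0.85. The log2 ratios of *Hspa8* were 0.13 and 0.47 and those of *Hsp90aa1* -0.21 and -0.37. Of the chaperonin genes *Hspd1* was at 0.02 and -0.02 and *Hspe1* at 0.29 and 0.02. The medians over the 10 genes were -0.09 in WT and -0.06 in CD3ϵ-/- hearts, and those of all genes 0.03 and 0.06.

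Between the TAC groups *Hspa1a* in macrophages was 2.43-fold lower in CD3ϵ-/- than in WT hearts (log2 ratio -1.28, interval -1.32 to -1.24), while CD8-depleted TAC was at 208 CPM beside 201 CPM in WT TAC (0.05, interval 0.01 to 0.08). *Hspa1b* was 2.17-fold lower in CD3ϵ-/- TAC than in WT TAC, and at 34.8 beside 42.0 CPM in CD8-depleted TAC (log2 ratio -0.27). Of the other members *Dnajb1* was the next, at 66.2, 51.3 and 73.5 CPM in WT, CD3ϵ-/- and CD8-depleted hearts. Both comparisons share WT TAC.

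In monocytes the pattern was not that of macrophages. The summed level of *Hspa1a* was 3.08-fold higher in WT TAC than in WT sham (229 and 74.3 CPM). It was at 160 and 155 CPM in CD3ϵ-/- TAC and sham. With each cell thinned to 30000 reads, 5 of 25 monocytes of WT sham and 54 of 160 of WT TAC had an *Hspa1a* read. The exact intervals of these shares, 6.83% to 40.7% and 26.5% to 41.6%, overlapped. By share of cells a rise of *Hspa1a* in WT TAC was thus not clear. In CD3ϵ-/- hearts the counts were 10 of 34 in sham and 56 of 168 in TAC. *Hsph1* was higher after TAC in both genotypes, by 1.03 and 1.53 on the log2 scale. *Dnajb1* was lower, with log2 ratios of -1.40 in WT and -0.48 in CD3ϵ-/- hearts. WT sham held 25 monocytes, and the 10% with the most *Dnajb1* reads held 81.9% of them. After thinning each cell to 30000 reads, 7 of 25 monocytes of WT sham and 52 of 160 of WT TAC had a *Dnajb1* read. By share of cells *Dnajb1* was thus not lower in WT TAC. In CD3ϵ-/- hearts the counts were 18 of 34 in sham and 57 of 168 in TAC, lower after TAC. TAC values lay above sham values for 6 members, which was so for 22.5% of 7635 genes, and below them for 1, as for 18.2%. In Cd209a-positive cells *Hspa1a* was 2.28-fold lower in WT TAC than in WT sham and at -0.47 on the log2 scale in CD3ϵ-/- hearts, 3 members, *Hspa8*, *Hsp90aa1* and *Dnaja1*, were above sham in all TAC groups (21.1% of 7882 genes) and 1, *Hspa1a*, below (10.1%). In B cells 3 members were above sham (11.6% of 8434 genes), namely *Hspa8*, *Dnaja1* and *Hsph1*, and 2 below (9.77%), *Hspa1b* and *Hspa5*. *Hspa8*, *Dnaja1* and *Hsph1* were thus on the same side in macrophages, monocytes and B cells, and all classes share the hearts and the digestion.

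Immediate early genes, which cells switch on within minutes of handling, differed in the same direction as *Hspa1a* in macrophages. The 12 genes of this list summed to 18363 and 17536 CPM in WT and CD3ϵ-/- sham and to 9282, 8400 and 9353 CPM in WT, CD3ϵ-/- and CD8-depleted TAC. *Fos* was at 4646, 4301, 2576, 2033 and 2535 CPM and *Egr1* at 2667, 2512, 843, 616 and 923 CPM. In B cells the list summed to 11466, 10912, 8302, 9434 and 8089 CPM, and in monocytes to 16042, 14262, 12389, 11970 and 11645 CPM. The median reads per macrophage were 73104.5 and 77866.5 in the sham groups and 95724, 120852 and 100867 in the TAC groups. The part of handling, depth and surgery in these values was not tested, and with 1 sample per group they cannot be told apart.

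The reads of the inducible HSP70 came from a part of the cells. After thinning each cell to 30000 reads, 54.5% of 512 macrophages of WT sham had a read of *Hspa1a* or *Hspa1b* (exact 95% interval 50.1% to 58.9%) and 49.5% of 402 of CD3ϵ-/- sham (44.5% to 54.5%). In TAC the shares were 35.0% of 921 (31.9% to 38.1%) in WT, 31.5% of 486 (27.4% to 35.8%) in CD3ϵ-/- and 34.6% of 463 (30.2% to 39.1%) in the group labelled CD8-depleted. B cells had 9.21%, 11.9%, 7.89%, 15.0% and 8.47% in the order of groups above. How much of the share in B cells came from free RNA was not tested. Without thinning, the shares were 59.4%, 54.7%, 43.7%, 43.3% and 45.0% in macrophages and 8.60%, 16.8%, 12.5%, 17.6% and 19.4% in B cells. In macrophages the sham groups thus lay above the TAC groups by share as well as by level, while in B cells the shares of sham and TAC overlapped. In Lyve1-positive macrophages the thinned shares were 60.0%, 38.7%, 30.6%, 40.0% and 26.7%, and these overlapped too.

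**Figure D4:**
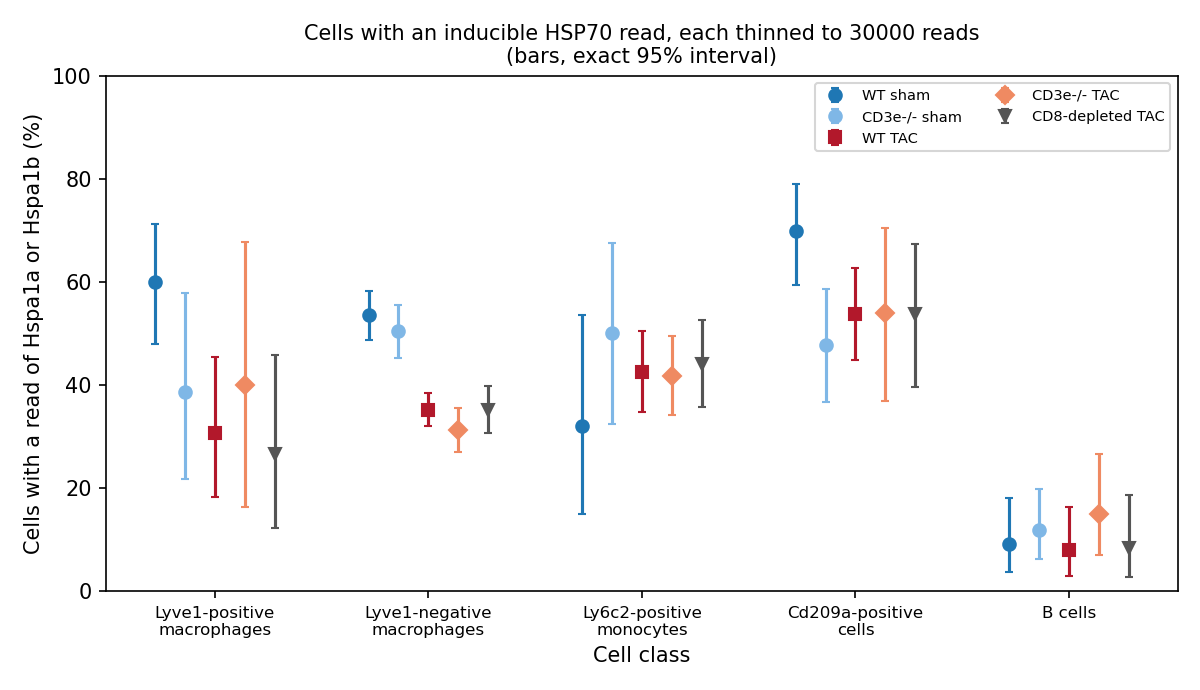
Share of cells with a read of Hspa1a or Hspa1b after thinning each cell to 30000 reads, by class and group, with exact 95% binomial intervals. B cells lie between 7.89% and 15.0%, and Lyve1-negative macrophages at 53.5% and 50.4% in sham against 31.2% to 35.2% in TAC.

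The level per cell was as uneven. The 10% of macrophages with the most reads of both genes held 67.6% of them in both sham groups and 74.6% to 80.5% in the TAC groups, and the 90th percentile was 2851 and 2556 CPM in WT and CD3ϵ-/- sham against 768, 280 and 683 CPM in WT, CD3ϵ-/- and CD8-depleted TAC. *Hspa8*, by contrast, had a read in 98.8% to 99.8% of the thinned macrophages, and the top 10% held 32.9% to 39.2% of its reads. *Hsph1* was sparse, with a read in 13.9% and 14.2% of sham and 21.9% to 30.0% of TAC macrophages.

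Across macrophages of 1 hashtag, *Hspa1a* and *Hspa1b* had a Spearman's rho of 0.43 to 0.69 over the 5 hashtags. *Hspa8* and *Hsp90aa1* came next with 0.30 to 0.40. *Fos* and the sum of both inducible genes had 0.20 to 0.48, whereas *Hspe1* and *Hspd1* had between -0.07 and 0.17 with that sum. The cells share a library and differ in depth, and these are descriptions over cells.

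Over the 25 sums of class and hashtag, the 5 genes outside the list whose log2(CPM + 10) was most like that of *Hspa1a* plus *Hspa1b* were *Cyp27a1* (Pearson's r 0.86), *Egr1* (0.86), *Rsu1* (0.85), *Ext1* (0.85) and *Batf3* (0.84), of 10373 genes compared. The other chaperones were far down in this order: *Hspa5* was the closest with 0.45, at rank 1690, and *Hsp90aa1* and *Hsph1* ran against it with -0.54 and -0.52. The immediate early genes other than *Egr1* ran from 0.69 (*Dusp1*, rank 272) to -0.31 (*Nr4a1*, rank 7333). The sums of 1 hashtag share their hearts, and the 5 sums of 1 class are no independent samples of a condition.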

How the data were processed

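The authors made the deposited matrix of read counts per gene and cell from 1 pooled TAS-Seq library. Hashtags were assigned to groups by the notes deposited with the matrix. The submitters' processing notes name cutadapt 2.10, Bowtie2 2.4.2 and GRCm38. The counts are reads, not molecules, and were used as deposited. Of 5363 columns, 8 without a hashtag and 40 called doublets by the authors were left out, as were cells with under 500 genes or a mitochondrial share over 0.4. Gates used CPM of the single cell: B cells had *Cd79a* of at least 500, *Csf1r* under 200 and *Lyz2* under 2000. Macrophages and monocytes had *Csf1r* of at least 200 and *Lyz2* of at least 1000, split at 500 for *Ly6c2* and 100 for *Lyve1*, and Cd209a-positive cells had *Cd209a* of at least 200. Reads were summed per class and hashtag and tested with edgeR 4.0.16 (R 4.3.3, TMM, quasi-likelihood test, Benjamini-Hochberg over all genes, threshold 0.05) with the hashtag as a block, since classes of 1 hashtag came from the same hearts. The fit was tested on simulated data. DESeq2 1.42.0 and limma 3.58.1 were alternatives. Members and lists were chosen with earlier results of these data known. All 10 members are named, and of the 76 other genes the called gene with the largest rise and fall in each subgroup. Levels are CPM of summed reads, and condition ratios carry exact intervals. Promoters are RefSeq sequences.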

Additional observations from a re-analysis of the deposited data

Results flagged for a closer look

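The log2 ratio of *Hspd1* in macrophages to B cells was 0.45 in WT sham, above the other 4 hashtags, which lay between 0.03 and 0.10. Its gap to the nearest hashtag was 0.82 of the whole range, past the limit of 0.71 that chance passes in about 1 in 20 sets of 5 values, and 44 such sets were looked at. *Hsph1* in Cd209a-positive cells had a log2 ratio of TAC to sham of -0.52 in WT and 2.32 in CD3ϵ-/- hearts, a difference of -2.84. That difference was not tested, since each group was 1 sample, and CD3ϵ-/- sham had 15.3 CPM. It was 1 of 110 pairs of ratios compared.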

How the results depend on the processing

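In macrophages against B cells *Hspa8*, *Hspa5* and *Hsp90aa1* kept direction and call in 14 of 14 alternatives. *Hspa1a* and *Hspa1b* did so too, but they were known to lead a cluster of these same cells, so this is no independent support for them. The count of members lower, 2 at first, was 1 with RLE size factors, 1 with no filter on low counts and 4 with limma on mean CPM, and 1 to 2 when each hashtag was left out. Without the replicate block on hashtags it was 1, members higher in Cd209a-positive cells were 0, genes lower in Lyve1-positive macrophages 373, and log2 fold changes were 0.14 for *Hspa1b* and 0.023 for *Dnaja1* in Lyve1-positive and -0.016 for *Hspa1b* in Cd209a-positive cells, all others keeping their direction. DESeq2 called 793 genes higher and 942 lower in Lyve1-positive macrophages, 1440 and 2290 in monocytes, and 1877 and 2457 in Cd209a-positive cells, the latter with 3 members higher, as with limma, which called 474 genes lower in Lyve1-positive macrophages and 1918 in monocytes. With the gates doubled 1 member was higher in monocytes. Leaving out each hashtag gave 83 to 213 genes higher and 38 to 190 lower in Lyve1-positive macrophages, the low ends without WT sham. In monocytes it gave 381 to 702 and 377 to 817, the low ends without CD8-depleted TAC, with 1 to 2 members higher. In Cd209a-positive cells it gave 836 to 1256 genes lower and 1 to 3 members higher. The cause was not tested.

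Log2 fold changes that turned sign were all of members not called. Against B cells *Hspe1* was 0.025 with gates halved, 0.038 unfiltered and -0.19 to 0.0076 with hashtags left out, and *Dnaja1* 0.045 unfiltered. In Lyve1-positive macrophages *Hspa1a* was -0.15 with limma, *Dnaja1* 0.030 with DESeq2, 0.030 with RLE, 0.068 with gates halved and -0.12 to 0.069 with hashtags left out, *Hspa1b* -0.44 to 0.32 and *Hspd1* -0.022 to 0.27. In monocytes *Hspe1* was 0.061 with gates halved, 0.019 with limma and -0.18 to 0.093 with hashtags left out, *Hsph1* -0.070 with gates doubled, and *Hspa1b* -0.62 to 0.19. In Cd209a-positive cells *Hspa8* was -0.0051 and *Hspd1* -0.018 unfiltered, and with hashtags left out *Hspd1* was -0.044 to 0.15, *Hspa1a* -0.43 to 0.10 and *Dnajb1* -0.050 to 0.34. The TAC to sham ratio of *Hspa1a* plus *Hspa1b* in macrophages was -1.98 and -1.94 in WT with gates halved and doubled, and -2.48 with gates doubled and -3.03 by mean CPM over cells in CD3ϵ-/- hearts.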
